A study of Mus musculus with 2 samples.

Results

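MicroRNA genes known as markers of liver and pancreas, 8 in all, were followed in the fetal mouse kidney. They were Mir122 of the liver, Mir375, Mir7-1, Mir7-2 and Mir7b of endocrine cells, and Mir216a, Mir216b and Mir217 of the exocrine pancreas. These 8 genes were chosen by name among the 1973 gene rows of the deposited tables, and all 8 have a row. The data are 2 microRNA libraries, labelled biological replicates 1 and 2, from kidneys of healthy mouse embryos of strain B6NCrl at embryonic day 16.5, males and females pooled. The pool of replicate 2 came from 41 embryos, and that of replicate 1 is labelled as pooled with no number. Both tissue samples carry the same donor record, so the spread between the libraries may be partly technical. There is 1 group and no treatment, so each comparison between libraries is between these pools and not between conditions.

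A microRNA gene is transcribed as a longer RNA, from which a hairpin is excised and then trimmed to mature strands from its 5p and 3p arms. The mature strand pairs with messenger RNAs mainly through its seed, the stretch from base 2 to base 8, and lowers their output. miR-122 is the dominant microRNA of hepatocytes, with roles in lipid and cholesterol metabolism. miR-375 is the best known microRNA of pancreatic islets, where it restrains insulin secretion, and it also marks neuroendocrine cells elsewhere. miR-7 is shared by islets and neurons, while miR-216a, miR-216b and miR-217 mark acinar cells, which make digestive enzymes.

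The mature sequences show which of these genes can be told apart by their reads. They are from RefSeq on GRCm38.p6, from which sequences of 7 of the 8 genes were taken, with the seed in capitals. Mir122 was not looked up there, since sequences on its chromosome, 18, were left out. The miR-7 strands and the main strands of the exocrine genes are given because counts of single genes rest on their differences.
miR-7a-5p of Mir7-1 and Mir7-2: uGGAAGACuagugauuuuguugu
miR-7b-5p of Mir7b: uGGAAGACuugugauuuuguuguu
miR-7a-1-3p of Mir7-1: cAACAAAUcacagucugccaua
miR-7a-2-3p of Mir7-2: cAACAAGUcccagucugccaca
miR-7b-3p of Mir7b: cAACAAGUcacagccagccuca
miR-216a-5p: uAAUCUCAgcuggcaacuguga
miR-216b-5p: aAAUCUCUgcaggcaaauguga
miR-217-5p: uACUGCAUcaggaacugacugga

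The 3 miR-7 genes share the seed GGAAGAC on their 5p strand, and among the 1679 mature names in the RefSeq table no other strand has it. Counted from the 5′ end of miR-7a-5p, miR-7b-5p has 1 substitution, A10U, outside the seed. The 5p strand of Mir7-1 and Mir7-2 is identical over all 23 bases, and the stretch shared by their precursors is 24 nt long. The tables have a row of their own for reads with more than 1 mapping place, and the rows add up to the same total in each column. From this it is inferred, as the counting program is not named, that a read within the stretch is counted for neither gene. The 3p strands of Mir7-1 and Mir7-2 differ at 3 positions (A7G, A10C and U21C, counted from the 5′ end of the former). Each of these strands occurs in 1 precursor only. The levels of Mir7-1 and Mir7-2 are therefore uncertain and, on this reading, leave out the shared 5p strand. In the other 6 genes no stretch of 18 nt occurs in another microRNA precursor.

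Within the exocrine genes, miR-216a-5p and miR-216b-5p differ at 4 positions (U1A, A8U, U11A and C17A), of which A8U lies in the seed. miR-217-5p has a seed of its own, ACUGCAU. For Mir375, the gene with most of the reads, the hairpin is printed with miR-375-5p in capitals. This is the only strand of Mir375 in the RefSeq sequences used, so any strand of the other arm is left in lower case. The strand in capitals need not be the one meant by miR-375 above. The capitals mark an annotated strand and do not say which arm the reads came from, since counts are per gene.
Mir375 hairpin: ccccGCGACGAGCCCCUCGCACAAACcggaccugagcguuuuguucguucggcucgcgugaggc

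The hairpin of Mir375 lies between genes, at chr1:74900658-74900721 on the minus strand. Mir7-1 is in an intron of Hnrnpk, which encodes an RNA-binding protein, at chr13:58392779-58392886 on the minus strand. Mir7-2 (chr7:78888277-78888373, plus strand) and Mir7b (chr17:56242988-56243098, plus strand) overlap no other annotated gene. The exocrine genes lie on the plus strand of chromosome 11 within 17645 bases. Mir216b is first, at chr11:28746191-28746276, opposite to an annotated gene named Mir216c. After a gap of 10735 bases comes Mir216a, at chr11:28757012-28757083, and after another 6644 bases Mir217, at chr11:28763728-28763835. Mir216a and Mir217 lie in an intron of the long non-coding RNA gene Gm12082. All positions are on mm10, from GENCODE M21.

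Levels are counts per 1000000 reads on the strand of a microRNA gene (CPM), with the mean ± SD of both libraries (n = 2). Replicates 1 and 2 held 5317669 and 7128703 such reads. Intervals are exact Poisson 95% intervals and cover counting error only, since reads are not independent molecules. A floor of 3 reads, about the 1-sided 95% limit of a count of 0, was preset. It equals 0.564 CPM in replicate 1 and 0.421 CPM in replicate 2. As a check of the labelled tissue, 13 fixed markers of kidney and its epithelium were all found at 1 CPM or more in both libraries and summed to 30.7% of the reads. The highest were Mir10a and Mir10b, microRNAs of the Hox loci, at 154681 ± 13615 and 61412 ± 3178 CPM.

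The liver and pancreas genes together took 0.120% of all counted reads in replicate 1 and 0.0812% in replicate 2. Most of this was Mir375, with 72.2% and 66.1% of their reads. At 1 CPM or more in both libraries 5 of the 8 were detected, that is Mir122 and all 4 endocrine genes. None of the 3 exocrine genes reached 1 CPM in both.

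Mir375 stood highest, with 4612 reads or 867 CPM (842 to 893) in replicate 1 and 3827 reads or 537 CPM (520 to 554) in replicate 2. Its mean of 702 ± 234 CPM ranked 95 among all gene rows. The intervals do not overlap, and the level was lower in replicate 2. Directly above and below it in mean level stood Mir674 (705 ± 4.06 CPM) and Mir141 of the epithelial miR-200 family (667 ± 3.71 CPM), both much closer between the libraries.

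Mir122 was counted with 1117 reads, or 210 CPM (198 to 223), in replicate 1 and 1219 reads, or 171 CPM (162 to 181), in replicate 2. Its mean of 191 ± 27.6 CPM ranked 141. It too was lower in replicate 2, with intervals apart. Its neighbours in level were Mir224 (196 ± 29.1 CPM) and Mir341 (190 ± 20.7 CPM). Both were higher in replicate 2, Mir224 at 176 and 217 CPM and Mir341 at 175 and 205 CPM. The gene overlaps an exon of the long non-coding RNA gene AC157910.3 on the plus strand of chromosome 18, from 65248861 to 65248926.

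The miR-7 genes stood below both. Mir7-1 had 303 and 425 reads, 57.0 CPM (50.7 to 63.8) in replicate 1 and 59.6 CPM (54.1 to 65.6) in replicate 2. Mir7b had 308 and 255 reads, 57.9 CPM (51.6 to 64.8) in replicate 1 and 35.8 CPM (31.5 to 40.4) in replicate 2. In replicate 1 these levels overlapped, while in replicate 2 Mir7b was the lower of the pair, with intervals apart. Mir7-2 had 32 and 54 reads, 6.02 CPM (4.12 to 8.50) and 7.58 CPM (5.69 to 9.88), with overlapping intervals.

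The exocrine genes were at the edge of detection. Mir217 had 9 and 7 reads, 1.69 CPM (0.774 to 3.21) in replicate 1 and 0.982 CPM (0.395 to 2.02) in replicate 2. Mir216a and Mir216b had 3 reads each in replicate 1 and 1 each in replicate 2, at or under the floor of 3 reads. Their upper bounds were 1.65 CPM in replicate 1 and 0.782 CPM in replicate 2. For each of the 3 genes the intervals of the libraries overlapped, so no difference was detectable beyond counting error at this depth. Of all 8 genes, Mir216b alone had a read on the opposite strand, 1 in replicate 1.

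**Figure D1:**
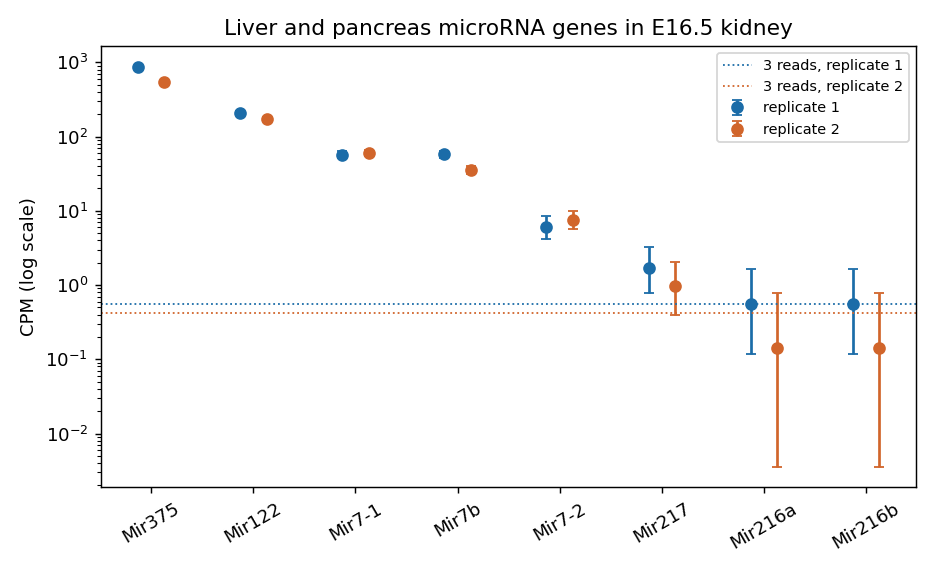
CPM (log scale) of the 8 genes in replicate 1 (blue) and replicate 2 (orange), with exact Poisson 95% intervals, and dotted lines at 3 reads in each library. Mir375 and Mir122 stand well above the lines, while Mir216a and Mir216b lie at or under them.

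From highest to lowest mean level the order was Mir375, Mir122, Mir7-1, Mir7b, Mir7-2, Mir217, and Mir216a with Mir216b. A mature microRNA gives a read whatever the length of its hairpin, so these levels were not scaled by length. How well each sequence is captured was not tested. The values of both libraries were apart for Mir375 over Mir122 (3.68-fold in mean level), Mir122 over Mir7-1 (3.27-fold), Mir7b over Mir7-2 (6.89-fold) and Mir7-2 over Mir217 (5.08-fold). Those of Mir7-1 and Mir7b overlapped, so their order is not settled. The values of Mir217 did not overlap those of Mir216a and Mir216b, but their counting intervals did in both libraries. Mir7-1 and Mir7-2 keep their places only as far as their countable reads go.

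Summed by tissue, the 4 endocrine genes reached 988 CPM (962 to 1015) in replicate 1 and 640 CPM (621 to 659) in replicate 2. The sum was 814 ± 246 CPM, and Mir375 gave most of it. On the reading given above, this sum leaves out the 5p strand that Mir7-1 and Mir7-2 share. To that extent the sum, the share of Mir375 in it and ratios of the sum are uncertain. The 3 exocrine genes summed to 15 and 9 reads, 2.82 CPM (1.58 to 4.65) and 1.26 CPM (0.577 to 2.40), with a mean of 2.04 ± 1.10 CPM. Liver Mir122 stood between them, at the level given above. In this bulk tissue fewer cells of a type and less RNA per cell cannot be told apart.

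The libraries were next compared for each gene, as log2 ratios of replicate 2 to replicate 1 after TMM scaling, with exact binomial 95% intervals for counting error. TMM lowers every ratio by 0.14 relative to library totals. With 1 library on each side no residual degrees of freedom are left. A gene was therefore called by a difference of at least 1.5-fold, among genes with 10 reads or more over both libraries. That filter kept 6 of the 8 genes and left out Mir216a and Mir216b, with 4 reads each. Mir375 had a log2 ratio of -0.84 (-0.90 to -0.77) and Mir7b the same value, -0.84 (-1.08 to -0.59). Mir122 had -0.44 (-0.56 to -0.32), short of 1.5-fold but with an interval below 0. Mir7-1 stood at -0.08 (-0.29 to 0.14) and Mir7-2 at 0.19 (-0.47 to 0.87), both with intervals across 0, and with library totals Mir7-1 turned to 0.07. Mir217 had -0.93 with an interval from -2.59 to 0.66.

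Lower by at least 1.5-fold were 3 of these 6 genes (Mir375, Mir7b and Mir217) and none was higher, against 11.4% of all 455 genes lower and 22.4% past this fold in either direction. This background depends on level. Of the 181 genes at a mean of 100 CPM or more, 2.21% passed in either direction and 1.66% were lower, and Mir375 had the lowest ratio of them all. Mir122 was the sixth lowest, as 5 of the 181 genes had a lower ratio. From 10 to under 100 CPM, a band set after the values were seen, 3.12% of 96 genes were lower, and Mir7b was second lowest. Mir7-1, in the same band, did not pass. The call of Mir217 rests on 16 reads and an interval that holds 0, so it does not show a difference. Of the other 5 genes, 2 were lower by this fold.

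In the edgeR exact test with the biological coefficient of variation (BCV) preset at 0.2, none of the 6 genes passed. Each had an adjusted p of 1 after Benjamini-Hochberg adjustment over all genes tested, of which 3 (0.659%) passed. Before adjustment 18 of the 455 genes had a p under 0.05 in this exact test, Mir375 among them (p = 0.0438). With library totals in place of TMM, Mir375 was not under 0.05 in that test. Mir7b came next of the 6 genes in the exact test (p = 0.0529). With the BCV set to 0, so that read sampling alone counts, Mir375, Mir7b and Mir122 passed the same edgeR test. Passing was common in this setting, with 147 of all 455 genes. These 3 genes thus passed with counting error alone and did not pass with the preset spread between pools.

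**Figure D2:**
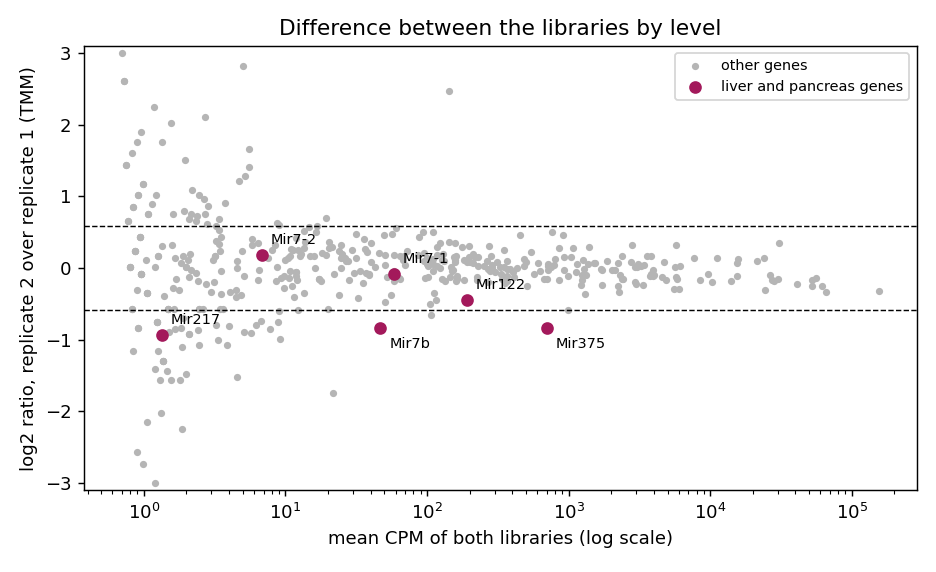
Log2 ratio of replicate 2 to replicate 1 (TMM) against mean CPM (log scale) for all genes with 10 reads or more, with dashed lines at 1.5-fold and points beyond 3 drawn at the edge. The 6 liver and pancreas genes are coloured: Mir375 and Mir7b both lie at -0.84, Mir7-1 at -0.08.

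Genes at 100 CPM or more whose ratio was nearest that of Mir375 were Mir6236 (-0.66), Mir467c of the Sfmbt2 intron (-0.59) and Mir137, a microRNA of neurons (-0.50). With 2 libraries this likeness rests on a single ratio per gene. The ratio of Mir375 was lower than that of all 3.

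Ratios of reads within a library do not depend on how the libraries are scaled, and 15 were computed, each with an exact conditional 95% interval for counting error. The ratio of Mir375 to Mir122 was 4.13 (3.87 to 4.41) in replicate 1 and 3.14 (2.94 to 3.35) in replicate 2. Replicate 2 thus had 0.760 times the ratio of replicate 1 (0.693 to 0.834). The ratio of the endocrine sum to the liver gene largely repeats this, since most reads of the sum are those of Mir375. It went from 4.70 (4.41 to 5.02) to 3.74 (3.51 to 3.99), a change of 0.795 times (0.726 to 0.871). Within the endocrine genes the ratio of Mir375 to Mir7b was the same in both libraries, 15.0 (13.3 to 16.9) and 15.0 (13.2 to 17.1), a change of 1.00 times (0.841 to 1.19).

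The ratios of Mir375 and of Mir7b to Mir7-1 differed between the libraries by more than counting error. The ratio of Mir375 to Mir7-1 was 15.2 (13.5 to 17.2) and 9.00 (8.14 to 9.98), a change of 0.592 times (0.506 to 0.692). Mir7b to Mir7-1 went from 1.02 (0.865 to 1.20) to 0.600 (0.512 to 0.702), a change of 0.590 times (0.470 to 0.742). Between Mir7-1 and Mir7-2 the ratio was 9.47 (6.57 to 14.1) and 7.87 (5.92 to 10.7), with a change of 0.831 times whose interval, 0.506 to 1.35, holds 1. These intervals hold counting error only, with 1 library on each side, and Mir7-2 was not set against Mir375 or Mir7b. The 5p strand that Mir7-1 and Mir7-2 share is taken to be uncounted, and its part in these ratios was not tested.

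Mir122 moved between these pairs. Its ratio to Mir7-1 was 3.69 (3.24 to 4.20) and 2.87 (2.57 to 3.21), a change of 0.778 times (0.655 to 0.924). Its ratio to Mir7b went the other way, from 3.63 (3.19 to 4.13) to 4.78 (4.17 to 5.49), a change of 1.32 times (1.09 to 1.59). Against Mir10a, the most abundant gene, the change was 0.701 times (0.671 to 0.732) for Mir375 and 0.922 times (0.849 to 1.001) for Mir122. Mir10a was itself lower in replicate 2, with a log2 ratio of -0.32 after TMM scaling.

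The exocrine sum was too small for a precise ratio. The endocrine genes held 350 times its reads in replicate 1 (212 to 626) and 507 times in replicate 2 (267 to 1109), a change of 1.45 times with an interval from 0.592 to 3.75. Mir122 held 74.5 times its reads (45.0 to 134) and 135 times (71.1 to 297), a change of 1.82 times (0.742 to 4.73). Both intervals of change hold 1. The endocrine sum and Mir122 thus stood far above the exocrine sum in both libraries, by at least the lower bounds given. This does not hold for each endocrine gene, as Mir7-2 stood 3.56-fold and 7.71-fold above Mir217.

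**Figure D3:**
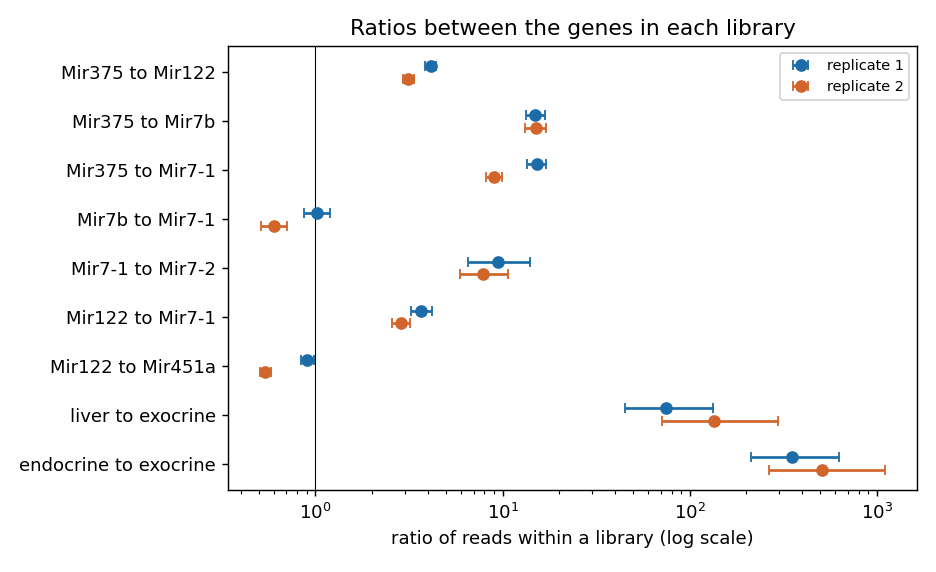
Ratios of reads within replicate 1 (blue) and replicate 2 (orange) on a log scale, with exact conditional 95% intervals. The ratio of Mir375 to Mir7b is 15.0 in both libraries, while those of Mir375 to Mir7-1 and of Mir7b to Mir7-1 are lower in replicate 2, with intervals apart.

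Fixed lists of other microRNAs were read beside these genes. Known from liver, pancreas or gut but also from kidney are Mir148a (503 ± 55.2 CPM), Mir192 (164 ± 2.32 CPM), Mir194-2, Mir215, Mir802 and Mir194-1. All 6 were detected, 1 (Mir194-1) was past 1.5-fold, on the higher side, and their median log2 ratio was 0.09, against 0.02 over all genes tested. Their sum was 738 and 845 CPM, a log2 ratio of 0.05, in the libraries where Mir375 and Mir7b stood at -0.84. The 13 kidney and epithelium markers summed to 316484 and 297024 CPM, with a log2 ratio of -0.23 for the sum, a median of -0.16, and 0 genes past 1.5-fold. Mir802 stood at 9.59 and 9.82 CPM. The precursors of Mir194-1 and Mir194-2 share sequence, as do those of some members of the lists that follow, so list sums are uncertain.

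Blood-cell microRNAs were measured because blood reaches every organ. The erythroid list summed to 313 CPM (298 to 328) in replicate 1 and 434 CPM (419 to 449) in replicate 2, led by Mir451a (274 ± 59.7 CPM) and Mir144 (88.1 ± 24.4 CPM). The log2 ratio of the sum was 0.33, and 0 of its 3 genes were past 1.5-fold. The ratio of Mir122 to Mir451a was 0.905 (0.834 to 0.982) and 0.540 (0.504 to 0.580), a change of 0.597 times (0.536 to 0.665). The leukocyte list, led by Mir223 (367 ± 43.1 CPM) and Mir155 (228 ± 18.7 CPM), summed to 566 and 664 CPM over its 3 measured members. Its sum had a log2 ratio of 0.09, and 1 of the 3, Mir150, was past 1.5-fold, on the higher side. The part of blood in the Mir122 values was not tested.

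Neuron markers are of interest since miR-7 and miR-375 are also known from neurons and neuroendocrine cells. The list summed to 641 CPM (620 to 663) and 676 CPM (657 to 695), and 10 of its 14 measured members were detected. Mir132 (364 ± 22.2 CPM) and Mir137 (105 ± 18.3 CPM) led it. The defining neuronal genes Mir124a-2 and Mir124a-3 had no reads, and Mir124a-1 had 1 read in replicate 2 only. The precursors of these 3 genes share stretches of 18 nt, so reads of miR-124 can be missing. The median log2 ratio of the 10 members with 10 reads or more was 0.00, with 1 lower and 1 higher by 1.5-fold. The part of neuronal cells in the values of Mir375 and Mir7b was not tested.

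Striated muscle genes summed to 302 and 325 CPM, led by Mir206 (277 ± 14.1 CPM) and Mir208b (20.5 ± 4.99 CPM), while Mir1a-1, Mir133a-1 and Mir133a-2 had no reads. Their precursors share sequence with copies of the same genes, so reads of miR-1 and miR-133 can be missing too. The gonad and adrenal list summed to 16.4 and 18.1 CPM, led by Mir741 (11.8 and 6.59 CPM) and Mir202 (1.13 and 8.84 CPM). The muscle sum had a log2 ratio of -0.04. That of the gonad and adrenal list was 0.00, with Mir741 at -0.99 and Mir202, on 6 and 63 reads, at 2.83.

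**Figure D4:**
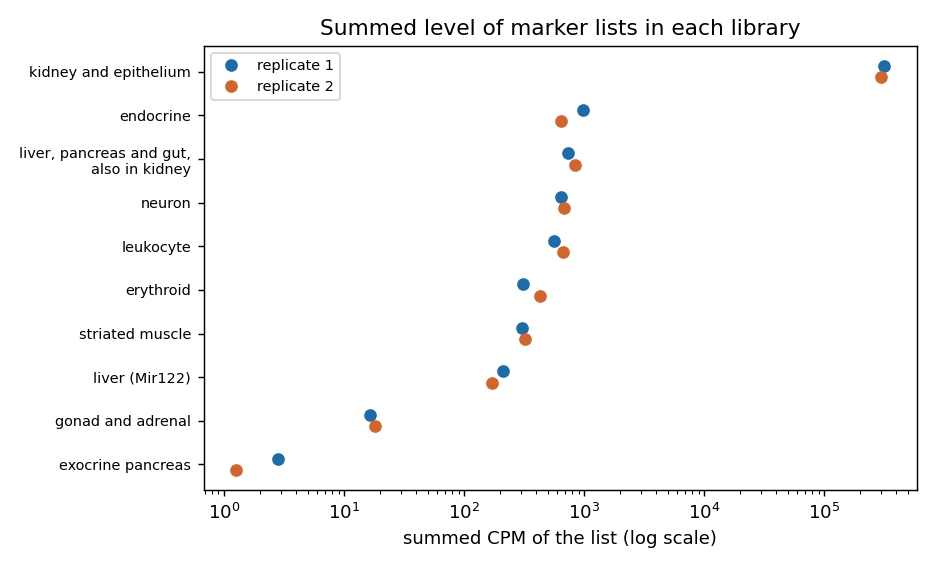
Summed CPM (log scale) of each marker list in replicate 1 (blue) and replicate 2 (orange). The endocrine sum is 988 and 640 CPM, Mir122 is 210 and 171, and the exocrine sum is lowest at 2.82 and 1.26.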

How the data were processed

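MicroRNAs under 30 nt, per the labels, were sequenced from 2 kidney pools. As deposited, each table gives raw read counts for annotated microRNA genes (mm10, annotation M4, per the accompanying text file). Of the aligner, counter and trimming, neither name nor version is given in the sources used here. Each table has 3 columns of counts without names, and in all 1973 gene rows the first equals the sum of the other 2. The second, read as the strand of the gene, was used. Rows that name no gene held 55.2% and 51.5% of all reads and were left out. Reads mapping to several places made up 28.0% and 25.3%.

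Symbols and positions are from GENCODE M21 (GRCm38), which matched 1894 rows. The 18-nt comparison used its precursor sequences. Ratios between libraries used TMM factors of 0.952 and 1.05 (edgeR 4.0.16, R 4.3.3) and the edgeR exact test, since the quasi-likelihood test needs residual degrees of freedom. Intervals were computed with scipy 1.17.1. The test was checked on simulated data. Alternatives were DESeq2 1.42.0 size factors, library totals, other filters, other BCV values, a 2-fold threshold, either strand, totals without the most abundant gene, and each library alone.

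Named are all 8 genes, the 2 highest of each fixed list, the neighbours in level of Mir375 and Mir122, and the 3 ratios nearest Mir375. Members, lists and rules were chosen with earlier results of these data known. The other members of the list known also from kidney, and genes without reads in the neuron and muscle lists, were named after their values were seen.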

Additional observations from a re-analysis of the deposited data

How the results depend on the processing

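On either strand the endocrine sum, the exocrine sum and Mir122 kept within 1 SD of their means, as they must with each library alone. Leaving the most abundant gene out of the total raised all of them, as a smaller total must. The endocrine sum rose from 814 to 965 CPM, the exocrine sum from 2.04 to 2.43 CPM and Mir122 from 191 to 226 CPM. Of these 3 levels only Mir122 thereby moved past 1 SD (27.6 CPM). The SDs of the sums, 246 and 1.10 CPM, are wider relative to their means. Taken singly, Mir7-1 (58.3 to 69.0 CPM) and Mir7-2 (6.80 to 8.03 CPM) moved past their SDs as well. Genes past 1.5-fold numbered 102 of 455 (52 lower, 50 higher). Without a filter on reads they numbered 300 of 710 (134 lower, 166 higher). With at least 50 reads they were 24 of 316 (15 and 9), and at a 2-fold threshold 49 of 455 (23 and 26). At 100 CPM or more 4 of 181 genes passed, and 1 at 2-fold. Of the liver and pancreas genes 3 of 6 were lower, and 5 of 8 without a filter (with Mir216a and Mir216b at 3 and 1 reads). With at least 50 reads 2 of 5 were lower, and 0 of 6 at 2-fold. In the edgeR exact test 3 genes passed, 0 of them liver or pancreas genes, and 147 and 3 with a BCV of 0. With a BCV of 0.142, estimated from both libraries, 0 of these genes passed. Mir375 had a log2 ratio of -0.69 and Mir122 of -0.30 with library totals. Below about 3 reads, as for Mir216a and Mir216b, depth allows no comparison. No paired analysis was possible because there is 1 group.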
